A study of Mus musculus with 12 samples.

Results

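The 40 genes described here encode proteins of the cell division machinery, and were read in RNA of macrophages (Mφ) sorted from mouse hearts. They were picked by their symbols from a list of S phase and G2/M genes. The rule uses no measured value, but the members were chosen with earlier results of these data known. All 40 were among the 24445 gene symbols of the deposited tables, and all 40 passed the low-count filter that left 14608 genes for testing. By their known roles, 18 members act at the G1/S transition or in S phase and 22 act in G2 and mitosis.

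The 12 mice were adult males of the strain labelled C57BL6/J, with 4 mice in each of 3 groups and 1 library per mouse. Controls (Ct) received saline from an implanted pump. The study's pumps ran for 14 or 28 days, and which time applied to these controls was not stated. In the group with early concentric hypertrophy (ECH) the pump released isoproterenol (30 mg/kg/day), which stimulates β-adrenergic receptors, over 14 days. The group with heart failure (HF) had the same dose over 28 days. The cells were enriched for CD45 with magnetic beads, gated on CD11b and sorted alive as positive for CD14 and CD64, so that the sort itself rests on surface proteins. Libraries are called below by group and replicate number (Ct 1 to Ct 4, ECH 1 to ECH 4, HF 1 to HF 4). Levels are given as CPM, counts relative to the size of the library after edgeR's TMM scaling.

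The cell cycle runs from G1 through S phase, in which DNA is copied, and G2 to mitosis. D cyclins with Cdk4 and Cdk6 inactivate the retinoblastoma protein, which releases E2F factors, and these turn on genes for cyclin E, for the loading of the Mcm2-7 helicase on replication origins and for the supply of deoxynucleotides. Later in the cycle, genes for cyclin A, the B cyclins, Cdk1 and the spindle are turned on by complexes that hold B-Myb and Foxm1, and the cyclins are destroyed as cells leave mitosis. Resident tissue Mφ can divide in place.

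Promoter letters of both kinds are shown first, for members that return in the results. RefSeq promoter windows of build GRCm38.p6 (250 bases before the gene's start and 50 from it on) were found for 30 of the 40 members, and no window was at hand for Aurkb, Ccna2, Ccnd1, Ccne2, Foxm1, Gins2, Kif20a, Mcm4, Stmn1 and Tpx2. The E2F letters searched on both strands were TTTCCCGC, TTTCGCGC, TTTGCCGC and TTTGGCGC, and the letters of the cell cycle genes homology region (CHR), which the later complexes use, were TTTGAA. The bases shown run from position −160 to position −1 before the start on the gene's own strand, with E2F and CHR matches in capitals. E2F matches on opposite strands overlap in Mcm5 and Mcm6 and form 1 run of capitals there.
Mcm5 (chr8:75109349-75109508, plus strand): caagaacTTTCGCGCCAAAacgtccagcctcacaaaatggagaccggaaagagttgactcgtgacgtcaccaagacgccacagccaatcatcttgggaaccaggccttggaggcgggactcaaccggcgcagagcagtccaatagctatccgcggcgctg
Mcm6 (chr1:128359706-128359865, minus strand): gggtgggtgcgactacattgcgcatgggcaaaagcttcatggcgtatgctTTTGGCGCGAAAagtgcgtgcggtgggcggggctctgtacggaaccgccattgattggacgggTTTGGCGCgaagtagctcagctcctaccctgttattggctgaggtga
Cdk1 (chr10:69352913-69353072, minus strand): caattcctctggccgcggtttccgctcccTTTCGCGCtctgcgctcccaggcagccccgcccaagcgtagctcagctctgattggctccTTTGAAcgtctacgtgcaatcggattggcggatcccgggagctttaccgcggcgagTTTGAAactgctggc
Mki67 (chr7:135716380-135716539, minus strand): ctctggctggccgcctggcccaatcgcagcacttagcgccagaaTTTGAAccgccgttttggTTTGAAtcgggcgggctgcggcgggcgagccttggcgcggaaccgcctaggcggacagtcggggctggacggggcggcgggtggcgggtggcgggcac
Mcm5 and Mcm6 show E2F letters and no CHR letters, Mki67 shows CHR letters at 2 places, and Cdk1 shows both. E2F letters stood in the windows of 6 of 14 G1/S and S members (Cdc6, Cdt1, Mcm3, Mcm5, Mcm6 and Mcm7) and of 1 of 16 G2/M members (Cdk1), and in 2.26% of all 32851 windows. CHR letters stood in 11 of 16 G2/M windows and in 1 of 14 G1/S and S windows (Mcm2), and in 17.9% of all windows. CCAAT, the letters bound by NF-Y and searched on both strands, stood in 14 of the 16 G2/M windows, in 8 of the 14 G1/S and S windows and in 37.4% of all windows.

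Totals per library lay between 88466559 and 111180291 counts, and between 13600 (HF 1) and 15940 (ECH 4) genes were detected. The 6 sort markers, Cd14, Fcgr1, Itgam, Ptprc, Csf1r and Adgre1, were each present in every library, at 71.5 CPM or more, and summed to 7079 to 10162 CPM. Within these, ECH 3 and ECH 4 held the lowest values of the 12 libraries for Adgre1 (755 and 579 CPM, against 878 to 1356 CPM in the others) and for Ptprc (506 and 424 CPM, against 558 to 707 CPM). Itgam went the other way, with its highest value in ECH 3 (787 CPM) and 690 CPM in ECH 4, against 223 to 559 CPM in Ct. The 5 resident Mφ markers summed to 3585 to 6038 CPM. Of these, Timd4 was at 112 to 227 CPM in Ct, 33.6 to 77.3 CPM in ECH and 65.5 to 100.5 CPM in HF, lowest in ECH 3 and ECH 4, and Cd163 was highest in the same libraries (2151 and 2350 CPM). The part of these differences in the levels of the members was not tested. Markers of other cells were read as well. The 7 T and NK cell genes summed to 12.4 to 75.9 CPM and the 5 endothelial genes to 8.26 to 26.8 CPM over all libraries. Library numbers in the labels allow 2 sets to be inferred, with ECH 1 and ECH 2 beside all Ct libraries (set A) and ECH 3 and ECH 4 beside all HF libraries (set B). The sources do not state that the sets were handled apart. HF and Ct are never in the same set, so that a difference between these groups and one between sets can be separated only through the ECH libraries.

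No member was called in any comparison by edgeR's quasi-likelihood test, where a call needs a 2-fold change and an FDR (adjusted p) under 0.05. Over all 14608 genes tested, 0.356% were called for ECH against Ct, 0.377% for HF against Ct and 0% for ECH against HF. By DESeq2, 6 members were called for HF against Ct (Mcm2, Mcm5, Mcm6, Gins2, Rrm2 and Tk1), beside 2.31% of all genes. By edgeR's likelihood ratio test 5 were (the same without Tk1), beside 1.87%, and all of them were higher in HF. Neither tool called a member for ECH against Ct, beside 1.7% and 1.49% of all genes, or for ECH against HF, beside 0.322% and 0.329%. At an unadjusted p under 0.05, HF against Ct held 8 members that were higher, beside 7.35% of all genes, and 0 that were lower, beside 8.72% of all genes. ECH against Ct held 1 higher member (background 6.03%) and 0 lower members (5.89%). ECH against HF held 0 higher members (5.17%) and 4 lower members (2.81%). Each of these members was a G1/S or S gene and none a G2/M gene by this test. In both directions together, DESeq2 held 2 members for ECH against Ct beside 14.2% of all genes, 10 for HF against Ct beside 18.8% and 5 for ECH against HF beside 9.75%. The likelihood ratio test held 2 beside 12.7%, 9 beside 16.9% and 5 beside 8.41% in the same order. The quasi-likelihood shares in both directions were 11.9%, 16.1% and 7.98%. With the inferred set as a term the counts were 0 beside 7.89%, 7 beside 15.1% and 7 beside 16.2%. Within the same set they were 1 beside 5.03% for ECH against Ct and 14 beside 21.2% for ECH against HF. With 1 library left out, the quasi-likelihood count for HF against Ct ran from 7 without HF 3 (12.7% of all genes) or HF 4 (13.8%) to 12 without Ct 2 (16%). That for ECH against Ct ran from 1 to 5, with 5 without ECH 1 (10.6%), 4 without Ct 4 (13.5%) and 3 without Ct 2 (10.4%) or Ct 3 (15.1%). That for ECH against HF was 2 without ECH 3 (3.89%), ECH 4 (4.27%) or HF 4 (7.5%). It was 8 without ECH 2 (10.1%), 7 without Ct 2 (11.9%) or HF 1 (5.91%) and 6 without HF 2 (7.99%).

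**Figure D1:**
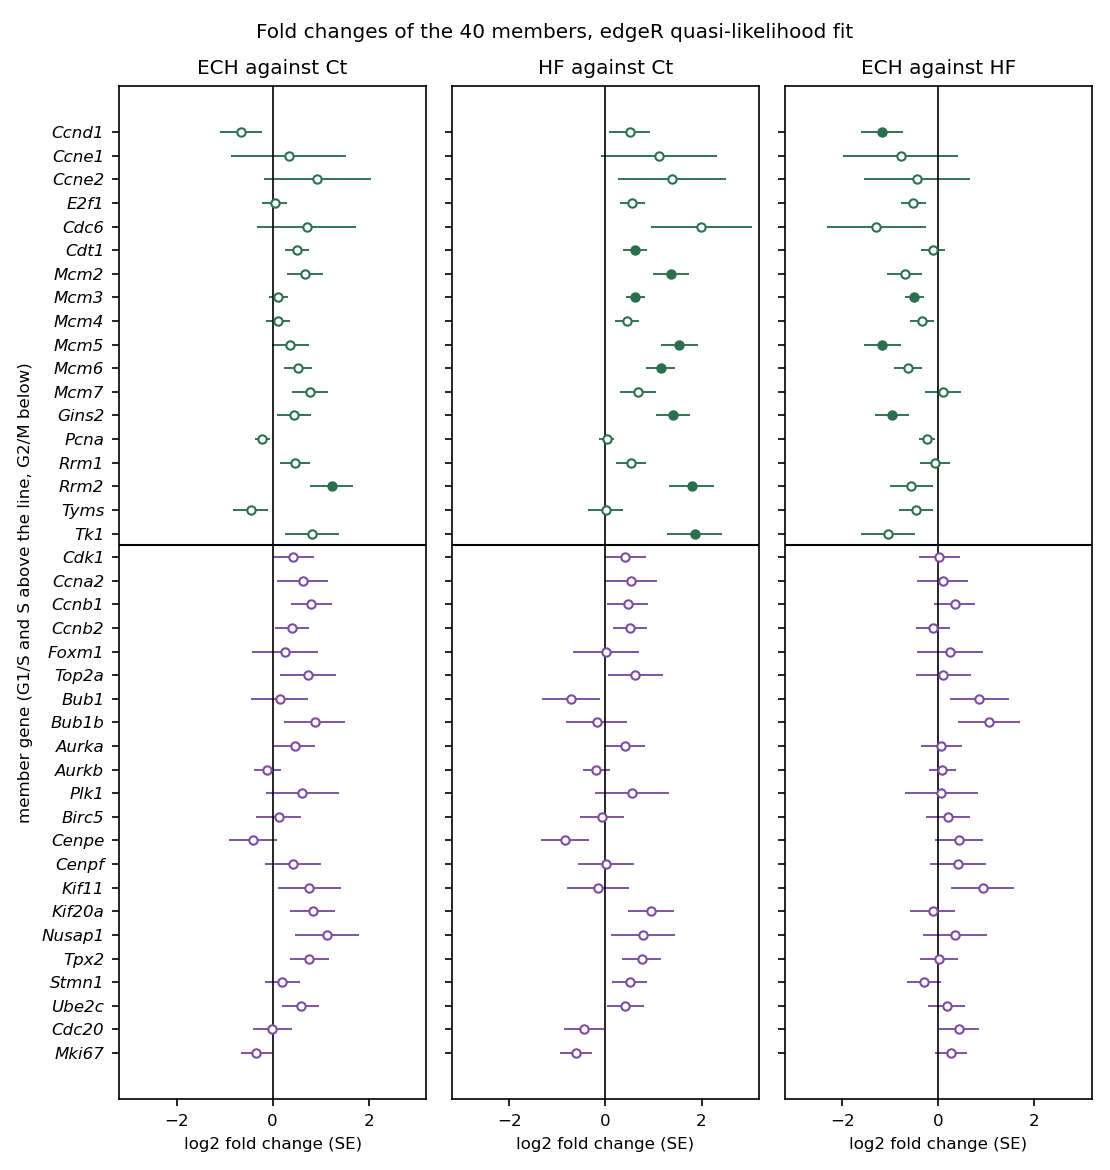
Log2 fold change (point) and its standard error (bar) of each of the 40 members in the 3 comparisons, from edgeR's quasi-likelihood fit of 12 libraries; filled points have an unadjusted p under 0.05. In HF against Ct all 18 G1/S and S members (green) lie at or right of 0, from 0.0011 to 1.99, while the 22 G2/M members (purple) lie on both sides of 0.

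The median log2 fold change of the 18 G1/S and S members was 0.90 for HF against Ct, 0.45 for ECH against Ct and −0.54 for ECH against HF. For the 22 G2/M members the medians were 0.40, 0.45 and 0.19, and over all genes tested they were −0.015, 0.010 and 0.018 in the same order. In bulk RNA of sorted cells, a larger share of dividing cells and more of these transcripts per cell cannot be told apart. These medians rest in part on single libraries. Without HF 4 the G1/S and S median for HF against Ct was 0.49, and without Ct 3 the G2/M median was 0.13 for HF against Ct and 0.22 for ECH against Ct. The G2/M median for HF against Ct was also lower without Ct 4 (0.23), without HF 2 (0.26) or without HF 4 (0.26), and that for ECH against Ct was higher without Ct 1 (0.69). The G1/S and S median for ECH against Ct was 0.12 without ECH 2, and that for ECH against HF was −0.29 without HF 4. The G2/M median for ECH against HF turned to −0.035 without ECH 3, was 0.10 without ECH 4 and 0.074 without HF 1, and was 0.36, 0.29 and 0.32 without ECH 1, ECH 2 and HF 3. In a fit that also holds the inferred set as a term, the G1/S and S medians were 1.15 for HF against Ct, 0.54 for ECH against Ct and −0.68 for ECH against HF. The G2/M medians were −0.57, −0.053 and 0.58 in that fit, so that the G1/S and S group kept its direction in all 3 comparisons and the G2/M group did not. With that term 0 members were called for ECH against Ct (0.151% of all genes), 1 for HF against Ct (Ccnd1, beside 1.42%) and 1 for ECH against HF (Ccnd1 again, beside 1.86%). Within the same set, 0 members were called for ECH 1 and 2 against Ct (0.00674%) and 3 for ECH 3 and 4 against HF (Ccnd1, Mcm5 and Bub1b, beside 2.49%).

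**Figure D2:**
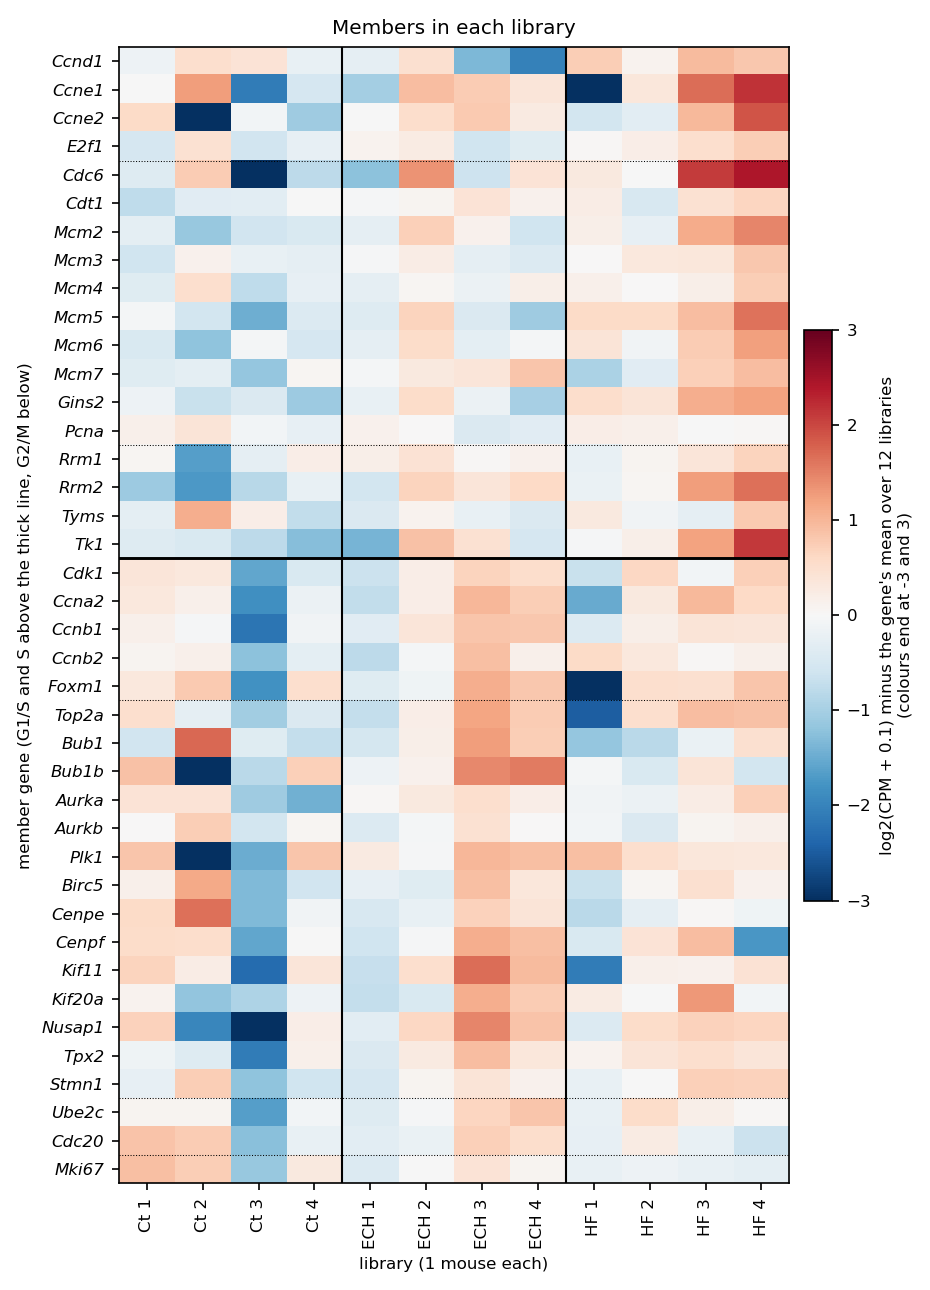
Colour gives log2(CPM + 0.1) of each member (rows, ordered by role) in each library (columns) minus the member's mean over the 12 libraries, with the colour scale ending 3 log2 units from that mean. HF 3 and HF 4 are red over most G1/S and S members, ECH 3 and ECH 4 are red over most G2/M members, and Ct 3 is blue over most G2/M members.

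Per kilobase of exon, which allows levels to be set beside each other between genes, the most abundant members in Ct Mφ were Pcna at 49.5 ± 9.59 CPM per kb (SD, n = 4) and Stmn1 at 29.3 ± 17.4 CPM per kb. They were followed by Mcm3 at 12.8 ± 2.62, Mcm6 at 10.4 ± 3.25, Mcm4 at 10.3 ± 4.04 and E2f1 at 9.71 ± 3.55 CPM per kb, whose levels lay close together. At the other end stood Ccne2 at 0.146 ± 0.136, Cdc6 at 0.308 ± 0.290 and Tk1 at 0.532 ± 0.141 CPM per kb. Mki67, the standard antigen of cycling cells, stood at 3.1997 ± 1.54 CPM per kb and Cdk1 at 2.30 ± 1.17 CPM per kb. The median within-group SD of log2(CPM + 0.1) was 0.57 for the G1/S and S members and 0.74 for the G2/M members, against 0.42 for all genes tested.

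Among the 4 regulators of the G1/S transition, cyclin D1 (Ccnd1, chromosome 7, 144929931 to 144939925 of GRCm38) separated the ECH libraries from each other. The partner of Cdk4 and Cdk6 that growth factor signals induce, it stood at 16.1, 25.4, 23.8 and 15.3 CPM in Ct 1 to 4, 14.7, 25, 6.95 and 4.26 CPM in ECH 1 to 4 and 29.9, 19, 34.2 and 31 CPM in HF 1 to 4. ECH 3 and ECH 4 held the lowest values of all 12 libraries, while ECH 2 lay within the Ct range and ECH 1 just under it. The log2 fold change was −1.16 ± 0.44 (SE) for ECH against HF (FDR 0.564), −0.66 ± 0.43 for ECH against Ct (FDR 0.598) and 0.50 ± 0.43 for HF against Ct (FDR 0.622). Within set B, ECH 3 and ECH 4 against HF gave −2.35 (edgeR FDR 0.0114). With the set as a term of the fit the value was also −2.35 (FDR 0.00656), and the FDR over all alternatives ran from 0.00656 to 1. With that term HF against Ct gave 2.33 (FDR 0.0362, range 0.0362 to 0.769).

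E2f1, the E2F factor that activates genes of DNA synthesis, stood at 24.1, 47, 22.8 and 28.7 CPM in Ct 1 to 4, 36.5, 40.4, 22.6 and 26.5 CPM in ECH 1 to 4 and 35.3, 39.1, 48.8 and 57.2 CPM in HF 1 to 4. HF 3 and HF 4 lay above every other library, but Ct 2 and the lower HF libraries overlapped, and the log2 fold change for HF against Ct was 0.56 ± 0.26 (FDR 0.318). Cyclin E1 (Ccne1), the partner of Cdk2 that starts S phase, stood at 1.34, 3.36, 0.243 and 0.929 CPM in Ct 1 to 4, 0.614, 2.68, 2.35 and 1.78 CPM in ECH 1 to 4 and 0, 1.74, 4.57 and 6.44 CPM in HF 1 to 4. HF held both the highest and the lowest library, since HF 1 had 0 counts, which allows up to 0.0287 CPM (3 counts), where HF 2 to HF 4 had 189 to 721 counts. Cyclin E2 (Ccne2), with the same role, stood at 1.10, 0, 0.657 and 0.281 CPM in Ct 1 to 4, 0.693, 1.06, 1.27 and 0.864 CPM in ECH 1 to 4 and 0.450, 0.545, 1.48 and 2.84 CPM in HF 1 to 4, and its 0 in Ct 2 allows up to 0.0349 CPM. The log2 fold changes for HF against Ct were 1.12 ± 1.21 for Ccne1 (FDR 0.704) and 1.38 ± 1.12 for Ccne2 (FDR 0.595), with standard errors about as large as the values. For ECH against Ct, Ccne2 was at 0.93 ± 1.11 (FDR 0.791).

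Genes of origin licensing and the replication fork made up most of the members with a low p in HF against Ct. The 10 members of this group all had a log2 fold change above 0, beside 48.8% of all genes. Their values ran from 0.022 to 1.99 with a median of 0.91. At an unadjusted p under 0.05, 6 of them were higher, beside 7.35% of all genes. In 3 of the 10 every HF library lay above every Ct library. Over all 18 G1/S and S members this separation was found for 5 genes (Mcm2, Mcm5, Gins2, Rrm2 and Tk1), beside 4.59% of all genes, and the reverse for 0, beside 4.45%. In ECH against Ct no member was separated in either direction, beside 4.33% and 3.64% of all genes, and in ECH against HF none was, beside 3.56% and 3.36%.

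Mcm5 (chromosome 8, 75109569 to 75128439 of GRCm38), a subunit of the Mcm2-7 helicase whose promoter with overlapping E2F letters is shown above, stood at 22.4, 16, 8.44 and 17.7 CPM in Ct 1 to 4, 17.9, 37, 17.4 and 11.1 CPM in ECH 1 to 4 and 34.9, 34.6, 44.7 and 73 CPM in HF 1 to 4. The lowest HF library lay above the highest Ct library. ECH 2 alone among the ECH libraries reached the HF range. The log2 fold change was 1.54 ± 0.39 for HF against Ct (FDR 0.106, or 0.00443 by DESeq2, range over the alternatives 0.00443 to 0.236) and −1.17 ± 0.38 for ECH against HF (FDR 0.541). Within set B, the latter was −1.72 (FDR 0.0415, range 0.0415 to 1).

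Mcm2, another helicase subunit, stood at 19.97, 11, 16.3 and 17.7 CPM in Ct 1 to 4, 20.3, 40.2, 26.6 and 16.1 CPM in ECH 1 to 4 and 27.8, 20.5, 52.6 and 67.2 CPM in HF 1 to 4. HF 3 and HF 4 were highest, and HF 2 lay only just above the highest Ct library. Mcm6 (chromosome 1, 128331590 to 128359664), a further subunit, whose promoter is shown above, stood at 50.04, 29.5, 66.5 and 48.5 CPM in Ct 1 to 4, 57.2, 100.5, 56 and 66.3 CPM in ECH 1 to 4 and 90.6, 64.1, 117 and 160.2 CPM in HF 1 to 4. HF 2 alone among the HF libraries fell into the Ct range, below Ct 3. The log2 fold changes for HF against Ct were 1.37 ± 0.37 for Mcm2 (FDR 0.127, 0.0112 by DESeq2, range 0.0112 to 0.285) and 1.15 ± 0.30 for Mcm6 (FDR 0.113, 0.00749 by DESeq2, range 0.00749 to 0.267).

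Mcm3 stood at 37.2, 61, 47.9 and 46.2 CPM in Ct 1 to 4, 54.6, 65.2, 46.5 and 42.4 CPM in ECH 1 to 4 and 56.9, 69.5, 70.5 and 98.4 CPM in HF 1 to 4, with HF 1 below Ct 2 and the other HF libraries above all Ct libraries. Its log2 fold change was 0.62 ± 0.20 for HF against Ct (FDR 0.181) and −0.50 ± 0.20 for ECH against HF (FDR 0.584). Mcm4 and Mcm7 complete the ring of 6 subunits. Mcm4 was at 36.9 ± 14.5 CPM in Ct, 39.8 ± 5.77 in ECH and 50.4 ± 12.4 in HF (mean ± SD, n = 4). Mcm7 was at 22.7 ± 7.26, 38.8 ± 10.1 and 36.2 ± 19.9 CPM, with FDRs for Mcm4 and Mcm7 of 0.403 and 0.411 for HF against Ct. Mcm7 alone of the 6 subunits had a higher mean in ECH than in HF, with a log2 difference of 0.10 ± 0.38 (FDR 0.987).

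Gins2, a subunit of the GINS complex that joins Cdc45 and the Mcm ring in the active helicase, stood at 6.30, 4.32, 5.13 and 3.21 CPM in Ct 1 to 4, 5.93, 10.3, 6.16 and 3.44 CPM in ECH 1 to 4 and 10.02, 9.09, 14.9 and 16.2 CPM in HF 1 to 4. All HF libraries lay above all Ct libraries, and of the ECH libraries only ECH 2 lay within the HF range. The log2 fold change was 1.41 ± 0.36 for HF against Ct (FDR 0.108, 0.00753 by DESeq2, range 0.00753 to 0.270) and −0.96 ± 0.36 for ECH against HF (FDR 0.564). Cdc6 and Cdt1 load the Mcm ring on origins. Cdt1 stood at 8.96, 12, 12.1 and 15 CPM in Ct 1 to 4, 14.8, 16.1, 20.4 and 16.7 CPM in ECH 1 to 4 and 17.8, 10.9, 20.9 and 23.8 CPM in HF 1 to 4, and HF 2 was the library that kept HF and Ct from separating. Cdc6 stood at 1.59, 3.65, 0.0101 and 1.18 CPM in Ct 1 to 4, 0.832, 5.52, 1.34 and 2.82 CPM in ECH 1 to 4 and 2.603, 2.10, 9.25 and 11.7 CPM in HF 1 to 4, where the value of Ct 3 is a single count and HF 3 and HF 4 lay far above the other libraries. The log2 fold changes for HF against Ct were 0.61 ± 0.25 for Cdt1 (FDR 0.261) and 1.99 ± 1.06 for Cdc6 (FDR 0.379), and that of Cdc6 for ECH against HF was −1.29 ± 1.03 (FDR 0.824).

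Pcna, the sliding clamp of DNA polymerases that also serves DNA repair, had a log2 fold change near 0 in HF against Ct. It stood at 125, 148, 107 and 95.4 CPM in Ct 1 to 4, 124, 114, 82.6 and 89.3 CPM in ECH 1 to 4 and 130.1, 125, 112 and 116 CPM in HF 1 to 4, and the 3 groups overlapped throughout. The log2 fold change was 0.022 ± 0.16 for HF against Ct (FDR 0.966) and −0.21 ± 0.16 for ECH against Ct (FDR 0.659).

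Of the 4 genes of deoxynucleotide supply, the S phase subunit of ribonucleotide reductase and thymidine kinase had the larger differences. Rrm2 (chromosome 12, 24708241 to 24714146), the subunit made in S phase, stood at 4.01, 2.54, 4.79 and 7.28 CPM in Ct 1 to 4, 5.86, 13.7, 11 and 13 CPM in ECH 1 to 4 and 7.41, 8.95, 20.7 and 27.4 CPM in HF 1 to 4. Every HF library lay above every Ct library, and in ECH only ECH 1 fell into the Ct range. The log2 fold change was 1.79 ± 0.46 for HF against Ct (FDR 0.109, 0.00594 by DESeq2, range 0.00594 to 0.409) and 1.23 ± 0.45 for ECH against Ct (FDR 0.292). Rrm2 was the member with the lowest FDR in ECH against Ct, and the member with an unadjusted p under 0.05 there.

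Tk1, which salvages thymidine, stood at 3.43, 3.25, 2.58 and 1.81 CPM in Ct 1 to 4, 1.64, 8.44, 6.27 and 3.17 CPM in ECH 1 to 4 and 4.38, 5.08, 10.6 and 20.1 CPM in HF 1 to 4. All HF libraries lay above all Ct libraries, but HF 4 held about as much as the other 3 HF libraries together. Its log2 fold change for HF against Ct was 1.86 ± 0.57 (FDR 0.165, 0.0285 by DESeq2, range 0.0285 to 0.395). Tyms, the enzyme that makes thymidylate, stood at 12, 31.7, 16.9 and 8.85 CPM in Ct 1 to 4, 10.9, 16, 12.7 and 10.9 CPM in ECH 1 to 4 and 18, 13.6, 12.3 and 25.6 CPM in HF 1 to 4, with the highest value in Ct 2 and a log2 fold change of 0.0011 ± 0.36 for HF against Ct (FDR 0.9996). Rrm1, the other reductase subunit, which is present through the cycle, was at 38.1 ± 16.9 CPM in Ct, 52.5 ± 6.80 in ECH and 54.7 ± 14.1 in HF (FDR 0.442 for HF against Ct).

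**Figure D3:**
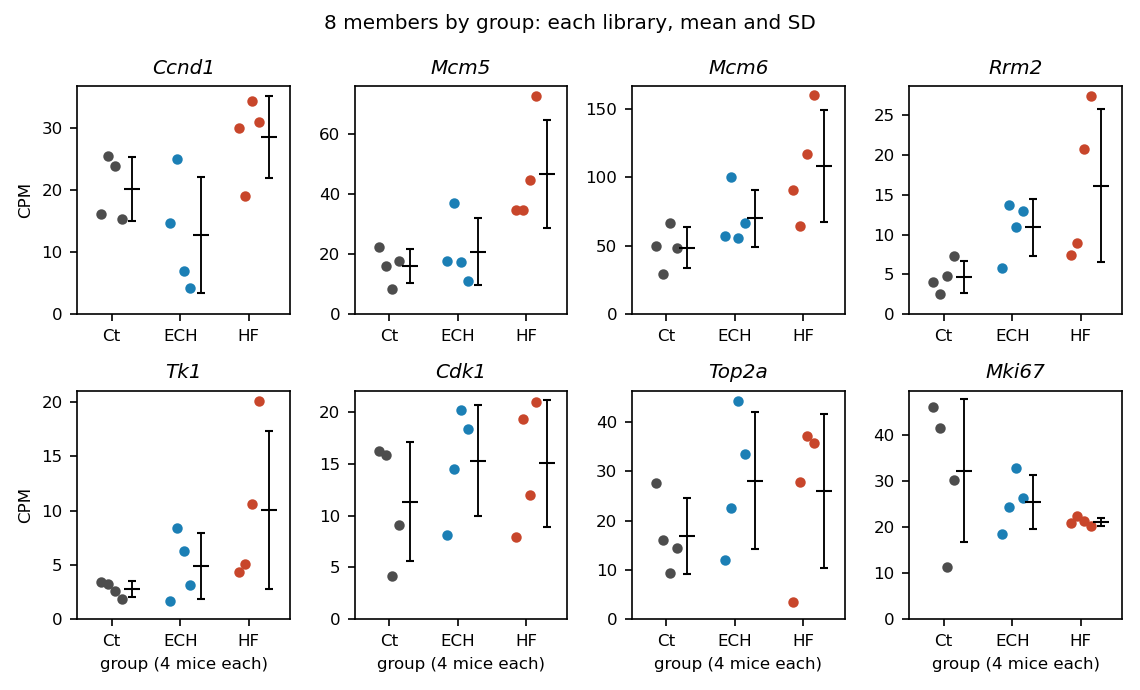
CPM of 8 members in each library (coloured points), with the mean and SD of each group of 4 mice (black). For Mcm5, Rrm2 and Tk1 every HF point lies above every Ct point, Ccnd1 shows the 2 lowest points in ECH, and Mki67 shows HF points between 20.1 and 22.3 CPM.

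Of the 22 G2/M members, 18 had a log2 fold change above 0 in ECH against Ct and 14 in HF against Ct, and none had an unadjusted p under 0.05 in any comparison over all libraries. The FDR of these members was 0.488 or more for ECH against Ct, 0.349 or more for HF against Ct and 0.727 or more for ECH against HF. Mki67 (chromosome 7, 135689784 to 135716361) stood at 46.1, 41.4, 11.2 and 30.1 CPM in Ct 1 to 4, 18.5, 24.3, 32.8 and 26.2 CPM in ECH 1 to 4 and 21, 22.3, 21.2 and 20.1 CPM in HF 1 to 4. The HF values lay close together, inside the wide range of Ct, and Ct 3 was the lowest of all libraries. The log2 fold change was −0.61 ± 0.33 for HF against Ct (FDR 0.395, range 0.0593 without Ct 3 to 0.658) and −0.34 ± 0.33 for ECH against Ct (FDR 0.738). Its log2 fold change was thus below 0 in both comparisons with Ct, where 18 of 18 G1/S and S members were above 0 in HF against Ct, without passing the test. Mki67 shared this with the G2/M members Aurkb, Cenpe and Cdc20, which were also below 0 in both comparisons with Ct.

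The kinases, cyclins and their regulator comprised 5 members. Cdk1 (chromosome 10, 69335146 to 69352938), the kinase that drives entry into mitosis, stood at 16.2, 15.9, 4.21 and 9.13 CPM in Ct 1 to 4, 8.13, 14.5, 20.2 and 18.4 CPM in ECH 1 to 4 and 7.91, 19.4, 12 and 21 CPM in HF 1 to 4. Cyclin B1 (Ccnb1), its partner, stood at 12, 10.6, 2.27 and 10.002 CPM in Ct 1 to 4, 8.46, 14, 19.4 and 19 CPM in ECH 1 to 4 and 8.05, 12.2, 14.1 and 13.8 CPM in HF 1 to 4. In both genes Ct 3 was the lowest library, and in ECH the values of ECH 3 and ECH 4 exceeded those of ECH 1 and ECH 2. The log2 fold changes for ECH against Ct were 0.43 ± 0.43 for Cdk1 (FDR 0.747) and 0.80 ± 0.43 for Ccnb1 (FDR 0.494). Cyclin A2 (Ccna2), which acts with Cdk2 in S phase and Cdk1 in G2, was at 10.3 ± 5.02 CPM in Ct, 15.8 ± 7.16 in ECH and 14.8 ± 8.01 in HF. Cyclin B2 (Ccnb2) was at 12.5 ± 4.62, 16.5 ± 7.92 and 17.9 ± 2.96 CPM. Foxm1, the factor that activates these genes, was at 6.87 ± 3.69, 8.19 ± 3.86 and 6.94 ± 4.33 CPM.

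Among the 14 genes of chromosomes, spindle and kinetochore, Top2a, which untangles replicated DNA, stood at 27.6, 16.2, 9.40 and 14.5 CPM in Ct 1 to 4, 11.9, 22.6, 44.3 and 33.5 CPM in ECH 1 to 4 and 3.42, 27.8, 37.2 and 35.8 CPM in HF 1 to 4. HF 1 held the lowest and ECH 3 the highest of the 12 values, and the log2 fold change was 0.73 ± 0.58 for ECH against Ct (FDR 0.668) and 0.62 ± 0.58 for HF against Ct (FDR 0.652). Nusap1, which bundles spindle microtubules, had one of the 3 largest log2 fold changes of all members for ECH against Ct at 1.13 ± 0.67 (FDR 0.548), and stood at 11.2, 1.69, 0.758 and 7.89 CPM in Ct 1 to 4, 5.44, 10.5, 18.9 and 12.4 CPM in ECH 1 to 4 and 5.08, 10.02, 11.2 and 10.7 CPM in HF 1 to 4. Ct 2 and Ct 3 were the lowest libraries, and Ct 1 and Ct 4 lay within the ECH range.

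Bub1b, the spindle checkpoint kinase BubR1, stood at 25.9, 1.61, 7.92 and 22.9 CPM in Ct 1 to 4, 12.6, 15.4, 37.9 and 41.1 CPM in ECH 1 to 4 and 13.5, 10.1, 18.3 and 9.52 CPM in HF 1 to 4. ECH 3 and ECH 4 lay above all other libraries, and within set B the log2 difference between ECH and HF was 1.62 (edgeR FDR 0.0186, range 0.0186 to 1), against 1.06 ± 0.64 (FDR 0.727) over all libraries. No other G2/M member was called under any alternative run, and the values of Bub1b per library are given for this reason. Stmn1, which destabilises microtubules and is also made outside mitosis, stood at 52.7, 104, 26.9 and 41.3 CPM in Ct 1 to 4, 43.6, 66.3, 80.6 and 68.2 CPM in ECH 1 to 4 and 53.5, 61.7, 102 and 101.2 CPM in HF 1 to 4. Ct 2, HF 3 and HF 4 held the highest values, and the groups overlapped (log2 fold change 0.50 ± 0.36 for HF against Ct, FDR 0.532).

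The other spindle and kinetochore genes differed from each other in direction. Tpx2, Plk1, Aurka and Cenpf had a log2 fold change above 0 in all 3 comparisons. Kif20a, a kinesin of cell cleavage, was at 5.76 ± 2.40 CPM in Ct, 10.3 ± 5.98 in ECH and 11.1 ± 5.78 in HF. Tpx2, which activates Aurora A, was at 7.84 ± 3.93, 13.3 ± 4.95 and 13.2 ± 1.54 CPM. Plk1 and Aurka, kinases that build the spindle, had log2 fold changes of 0.62 and 0.46 for ECH against Ct and of 0.55 and 0.40 for HF against Ct. Aurkb and Birc5, both of the chromosomal passenger complex, were at −0.19 and −0.075 for HF against Ct and at −0.11 and 0.12 for ECH against Ct. Bub1, Kif11 and the kinetochore genes Cenpe and Cenpf were at −0.72, −0.16, −0.84 and 0.0087 for HF against Ct, where Cenpe in Ct 2 stood at 29.7 CPM against 3.69 to 14 CPM in the other Ct libraries. For ECH against Ct, Bub1, Kif11, Cenpe and Cenpf were at 0.14, 0.76, −0.41 and 0.42.

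Cdc20 and Ube2c act at the exit from mitosis, as the activator and the ubiquitin-conjugating enzyme of the anaphase-promoting complex. Cdc20 stood at 20.6, 19.4, 4.73 and 9.82 CPM in Ct 1 to 4, 9.14, 9.998, 18.7 and 16.4 CPM in ECH 1 to 4 and 9.56, 13.6, 9.70 and 7.29 CPM in HF 1 to 4, and the highest values were those of Ct 1 and Ct 2. Its log2 fold change was −0.0074 ± 0.41 for ECH against Ct (FDR 0.997) and −0.44 ± 0.41 for HF against Ct (FDR 0.655). Ube2c was at 8.37 ± 3.57 CPM in Ct, 12.6 ± 4.81 in ECH and 11.1 ± 2.58 in HF.

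Summed over members, the phase groups put the libraries in different orders. The 18 G1/S and S members summed to 435, 495, 410.0 and 425 CPM in Ct 1 to 4, to 480.1, 638, 441 and 457 CPM in ECH 1 to 4 and to 566, 538, 728 and 934 CPM in HF 1 to 4. Every HF library thus lay above every Ct library, and in ECH only ECH 2 lay within the HF range. The 22 G2/M members summed to 366, 399.9, 119.5 and 269 CPM in Ct, to 212, 307, 519.8 and 424 CPM in ECH and to 231, 321, 402 and 369.5 CPM in HF, and the groups overlapped.

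**Figure D4:**
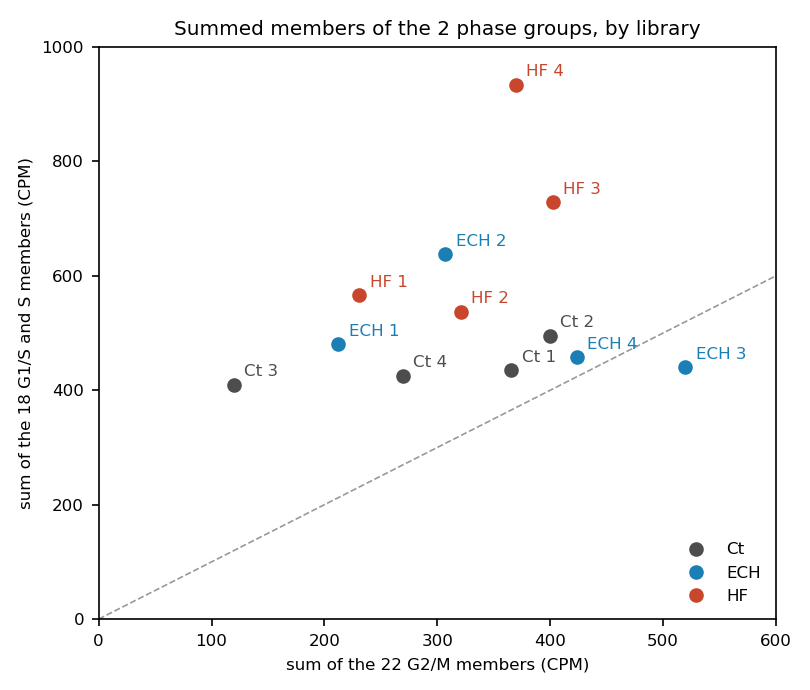
Each point is 1 library, with the summed CPM of the 22 G2/M members on the x axis, the summed CPM of the 18 G1/S and S members on the y axis, and equal sums on the dashed line. The HF points lie at 538 to 934 CPM of G1/S and S members, above the Ct points at 410.0 to 495 CPM, and ECH 3 alone lies under the dashed line.

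The ratio of the G1/S and S sum to the G2/M sum was 1.19, 1.24, 3.43 and 1.58 in Ct 1 to 4, 2.26, 2.08, 0.848 and 1.08 in ECH 1 to 4 and 2.45, 1.68, 1.81 and 2.53 in HF 1 to 4. ECH 3 and ECH 4 thus held the 2 lowest ratios, and Ct 3 the highest. Single libraries led their group across many members. ECH 3 was the highest ECH library for 20 of the 22 G2/M members and ECH 1 the lowest for 20 of them, and Ct 3 was the lowest Ct library for 17 of them. HF 4 was the highest HF library for 16 of the 18 G1/S and S members, and ECH 2 the highest ECH library for 13 of them.

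Markers of other cells moved with some of these libraries and groups. The 5 monocyte genes summed to 415, 291, 589 and 412 CPM in Ct 1 to 4, to 531, 619, 687 and 508 CPM in ECH 1 to 4 and to 539, 573, 903 and 817 CPM in HF 1 to 4, and none of them was at 0 in a library. HF 3 and HF 4 were highest both in this sum and in the G1/S and S sum. The 5 cardiomyocyte genes summed to 137, 169, 54.9 and 78.9 CPM in Ct 1 to 4, to 71, 62.4, 109.7 and 124 CPM in ECH 1 to 4 and to 88.6, 84.2, 76.2 and 46.3 CPM in HF 1 to 4. In Ct their order of libraries was that of the G2/M sum, and ECH 3 and ECH 4 exceeded ECH 1 and ECH 2 in both sums, while in HF the orders differed. The 5 dendritic cell genes summed to 52.7 to 65.2 CPM in Ct, 76.7 to 123.9 CPM in ECH and 96.8 to 120.4 CPM in HF, but the genes did not move together. Flt3 made up 55.8 CPM in ECH 3, Cd209a was at 75.5 to 95.8 CPM in HF, above Ct, and at 26.1 CPM in ECH 4, below Ct, and Xcr1 and Clec9a did not exceed their highest Ct values in any ECH or HF library. The 5 B cell genes summed to 96.6 to 446 CPM in Ct, where Ct 2 was highest, to 34.3 to 79.8 CPM in ECH and to 50.1 to 74.6 CPM in HF, with Pax5 under 1 CPM in every library. The 8 neutrophil and progenitor genes summed to 196 to 1452 CPM in Ct, again highest in Ct 2, to 60.3 to 431 CPM in ECH and to 51.1 to 1026 CPM in HF, where HF 4 was highest. Of these, the early progenitor genes Elane and Mpo stayed at or under 0.225 CPM in every library. In HF 4, S100a8 and S100a9 made up 370 and 602 CPM of the sum. Camp and Ltf did not follow it. Camp was at 1.59 CPM or more in every Ct library and at 0 in every HF library. Ltf was at 10.06 CPM or more in every Ct library and at or under 0.314 CPM in every HF library. The 5 fibroblast genes summed to 25.9 to 173 CPM in Ct, 76.0 to 389 CPM in ECH and 75.8 to 221 CPM in HF. The part of these cells in the levels of the members was not tested.

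The wider S phase list, 30 genes outside the members, was read beside the members. For HF against Ct, 24 of the 30 had a log2 fold change above 0, with a median of 0.45 beside −0.015 for all genes. At an unadjusted p under 0.05, 7 were higher (7.35% of all genes) and 0 lower (8.72%), and none passed the call by the quasi-likelihood test. For ECH against Ct, 21 of the 30 were above 0 with a median of 0.18, and 3 were higher (Chaf1a, Chaf1b and Usp1, beside 6.03% of all genes) and 0 lower (5.89%). Chaf1a, the large subunit of the chromatin assembly factor that follows the fork, stood at 1.26, 6.37, 2.59 and 4.42 CPM in Ct 1 to 4, 7.81, 15.5, 7.98 and 10.2 CPM in ECH 1 to 4 and 6.60, 10.2, 20.3 and 18.3 CPM in HF 1 to 4. Every HF and ECH library lay above every Ct library, and the log2 fold change was 1.92 ± 0.49 for HF against Ct (FDR 0.108, 0.00527 by DESeq2, range 0.00527 to 0.273) with an FDR of 0.231 for ECH against Ct. Chaf1b, its partner subunit, and Usp1, a deubiquitinase of DNA repair, were at 1.05 ± 0.44 (FDR 0.372) and 0.54 ± 0.17 (FDR 0.210) for ECH against Ct. In Usp1 every ECH library (45.02 to 77.8 CPM) lay above every Ct library (40.5 to 44.94 CPM), and ECH 3 and ECH 4 were highest. Fen1, which trims Okazaki fragments, and Rfc3, a subunit of the clamp loader, were at 0.67 ± 0.19 (FDR 0.143) and 0.81 ± 0.24 (FDR 0.148) for HF against Ct. For ECH against HF the lowest p of this list belonged to Dut, Hells and Usp1, with log2 fold changes of −0.89, −1.12 and 0.40.

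The wider G2/M list of 39 genes had medians of 0.18 for ECH against Ct, 0.19 for HF against Ct and 0.13 for ECH against HF, and no gene was called by the quasi-likelihood test. At an unadjusted p under 0.05, 2 of the 39 were higher in ECH than in Ct (Nek2 and Tacc3), beside 6.03% of all genes. In HF against Ct 2 were higher (the same pair), beside 7.35%, and 2 lower (Hmgb2 and, named after its values were seen, Espl1), beside 8.72%. These counts are near or under the background. Nek2, a centrosome kinase, stood at 2.12, 2.001, 3.73 and 1.84 CPM in Ct 1 to 4, 2.77, 8.47, 12.8 and 9.72 CPM in ECH 1 to 4 and 1.93, 6.35, 6.42 and 7.85 CPM in HF 1 to 4, with ECH 1 within the Ct range and the other ECH libraries above it. Its log2 fold change for ECH against Ct was 1.80 ± 0.52 (FDR 0.166, 0.0204 by DESeq2 and 0.0439 by the likelihood ratio test, range 0.0204 to 0.947).

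Genes that hold the cycle back had mostly negative log2 fold changes. Of the 12 inhibitors and pocket proteins, 1 had a log2 fold change above 0 in each comparison with Ct, the medians were −0.32 for ECH against Ct and −0.43 for HF against Ct. At an unadjusted p under 0.05, 3 were lower in ECH than in Ct, beside 5.89% of all genes, and 5 lower in HF than in Ct, beside 8.72%, with 0 called. Btg2, an antiproliferative gene that stress and p53 induce early, stood at 3381, 2840.3, 2839.9 and 2458 CPM in Ct 1 to 4, 2294, 1610.0, 1044 and 1595 CPM in ECH 1 to 4 and 1725, 2009, 1199 and 1324 CPM in HF 1 to 4. All ECH and HF libraries lay below all Ct libraries, with log2 fold changes of −0.82 ± 0.23 (FDR 0.151, range over the alternatives 0.0129 to 0.940) and −0.88 ± 0.23 (FDR 0.110, range 0.00543 to 0.738). Cdkn1c (p57) was at 31.2 ± 8.22 CPM in Ct, 18.8 ± 2.87 in ECH and 18.2 ± 5.63 in HF. Cdkn1b (p27) was at 14.3 ± 7.81, 8.34 ± 0.712 and 7.28 ± 2.14 CPM, where Ct 2 with 25.9 CPM stood above the 9.61 to 12 CPM of the other Ct libraries.

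Of the 6 other D cyclins and G1 kinases, 0 were called by the quasi-likelihood test. At an unadjusted p under 0.05, Ccnd3 was higher (0.38, beside 6.03% of all genes) and Cdk6 lower (−0.67, beside 5.89%) in ECH than in Ct. Ccnd3 and Cdk4 were higher in HF than in Ct (0.35 and 0.31, beside 7.35%), and Cdk4 was lower in ECH than in HF (−0.34, beside 2.81%). Ccnd2 and Myc were singled out after their values had been seen, since each was called when the library set was taken into account. With the set as a term, 1.42% of all genes were called for HF against Ct and 1.86% for ECH against HF. Within set B, 2.49% were called for ECH against HF. Ccnd2, another D cyclin, stood at 41.6, 55.9, 70.6 and 38.1 CPM in Ct 1 to 4, 66.4, 108, 23.2 and 19.4 CPM in ECH 1 to 4 and 88.9, 67.6, 63.4 and 85.6 CPM in HF 1 to 4. Myc, a factor that drives growth, stood at 57.3, 60.4, 47.8 and 64.9 CPM in Ct 1 to 4, 69.4, 65.6, 33.1 and 25.7 CPM in ECH 1 to 4 and 74.2, 84.8, 58.4 and 66 CPM in HF 1 to 4. As for Ccnd1, ECH 3 and ECH 4 held the 2 lowest values of the 12 libraries in both genes. Within set B the log2 differences between ECH and HF were −1.85 for Ccnd2 (edgeR FDR 0.00477, range 0.00477 to 1) and −1.27 for Myc (FDR 0.01399, range 0.00559 to 1), and over all libraries −0.50 (FDR 0.854) and −0.55 (FDR 0.646). Ccnd3, a further D cyclin, went the other way, with its 2 highest values in ECH 3 (114 CPM) and ECH 4 (119 CPM).

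Csf1r, the receptor that Mφ need to survive and divide, had log2 fold changes of 0.058 for ECH against Ct and −0.071 for HF against Ct. Maf, a factor that restrains Mφ self-renewal, was at 147, 456, 121 and 159 CPM in Ct 1 to 4, 106, 102, 119 and 122 CPM in ECH 1 to 4 and 164, 127, 131 and 112 CPM in HF 1 to 4. Ct 2 stood far above the other libraries, and the log2 fold change for ECH against Ct was −0.97 ± 0.34 (FDR 0.262).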

How the data were processed

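RNA of sorted Mφ from 12 mice was made into SMART-Seq v4 libraries and sequenced. Per the submitters' processing notes and the study's methods, the authors checked reads with FastQC, trimmed them with Trimmomatic, aligned them to mm10 with TopHat2 and counted them per gene with featureCounts; the deposited values are raw counts, whole numbers per gene symbol. Tool versions, the annotation, the use of strand and the unit counted (read or fragment) were not given in the sources used here. Groups came from the sample labels, and 0 columns belonged to other samples.

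From these counts, edgeR 4.0.16 in R 4.3.3 (filterByExpr by group, TMM, quasi-likelihood test, 1 mean per group, all 12 libraries, Benjamini-Hochberg over 14608 genes) gave log2 fold changes, SEs and FDRs; the common dispersion was 0.370. A call needed an FDR under 0.05 and a 2-fold change. The procedure was tested on simulated counts. Library totals of 88466559 to 111180291 set the counting error, and the SEs also hold the spread between mice. A count of 0 was given the limit of 3 counts, which covers counting error only. Replicates were separate mice.

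Members and lists (wider S phase, wider G2/M, inhibitors and pocket proteins, D cyclins and G1 kinases, cell markers) were chosen with earlier results of these data known. The counts of a further list of growth factor genes are not reported here. Values per library were given for 14 members with textbook roles (Mki67, Top2a, Cdk1, Ccnb1, Ccnd1, Ccne1, E2f1, Pcna, Mcm5, Mcm6, Rrm2, Tyms, Cdc20 and Stmn1), for members with an unadjusted p under 0.05 and for the 3 largest absolute log2 fold changes of each comparison; of the other lists, genes were named from among the 3 lowest p of each comparison. Alternatives were median-ratio scaling, DESeq2 1.42.0, edgeR's likelihood ratio test, a laxer and a stricter filter (more than 1 CPM in 4 libraries), fits of 2 groups, a replicate block, the inferred set as a term, the same set only, the FDR alone and each library left out. Exon lengths and gene positions came from GENCODE M21 (GRCm38), whose starts can differ from the RefSeq starts (GRCm38.p6) used for promoters. Figures were drawn with matplotlib 3.10.9 in Python 3.11.15.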

Additional observations from a re-analysis of the deposited data

Results flagged for a closer look

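Of the 120 combinations of a member and a group of 4 libraries, 4 held a library that stood apart from the other 3 by Dixon's criterion, where chance alone gives about 1 group in 20. Mcm4 was at 68.7 CPM in HF 4 against 41.5 to 46.0 CPM in HF 1 to 3. Bub1 was at 16.9 CPM in Ct 2 against 3.08 to 3.94 CPM in the other Ct libraries. Kif20a was at 19.7 CPM in HF 3 against 7.48 to 9.45 CPM in the other HF libraries. Ube2c was at 3.07 CPM in Ct 3 against 9.37 to 10.5 CPM in the other Ct libraries.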

How the results depend on the processing

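The counts of members called by the quasi-likelihood test stayed at 0 under median-ratio scaling, both filters, fits of 2 groups, the FDR without the fold threshold and each library left out (0 to 0). For HF against Ct, 6 members were called by DESeq2, 5 by the likelihood ratio test and 1 with the set as a term, and for ECH against HF 1 with that term and 3 within the same set. Other cell cycle genes called numbered 1 by DESeq2 and 1 by the likelihood ratio test for ECH against Ct (Nek2). For HF against Ct they numbered 3 by DESeq2 (Chaf1a, Uhrf1 and Hells), 1 by the likelihood ratio test (Chaf1a), 2 with the set as a term (Ccnd2 and Myc) and 1 (Chaf1a) without Ct 2 and HF 1, an alternative chosen after seeing the data, and 2 for ECH against HF with that term; leaving out 1 library gave 0 to 0. Leaving out 1 library, the median of the 40 members ran from 0.28 to 0.62 for ECH against Ct, from 0.29 to 0.63 for HF against Ct and from −0.18 to 0.13 for ECH against HF. With the set as a term it was 0.044, 0.060 and 0.30. Over all genes the calls for ECH against Ct, HF against Ct and ECH against HF were 52, 55 and 0, by DESeq2 248, 337 and 47, by the likelihood ratio test 218, 273 and 48, with the set as a term 22, 208 and 272, and in fits of 2 groups 8, 41 and 0. With a replicate block 22, 18 and 0 genes and 0 members were called, and the member medians were 0.43, 0.53 and −0.0037; same-numbered libraries correlated at −0.0758 to 0.0833 over 12 pairs, and 1 of 12 libraries correlated best with its own number. Of the members' single values, 53 of 880 for ECH against Ct, 48 of 840 for HF against Ct and 48 of 880 for ECH against HF had the other sign without being called, and 0 called values reversed. The causes were not tested.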
